A study of Mus musculus with 6 samples.

Results

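Glycolysis breaks glucose down to pyruvate in the cytoplasm, and lactate dehydrogenase can then turn the pyruvate into lactate, which leaves the cell through monocarboxylate transporters. When oxygen is scarce, the prolyl hydroxylases of the EGLN family no longer mark hypoxia-inducible factor alpha subunits for destruction by the VHL ubiquitin ligase, and the factor, paired with Arnt, binds promoters of its target genes. Several glycolytic genes are among those targets, and embryonic stem cells in culture are known for a high rate of glycolysis.

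The 36 genes described here encode glucose transporters, the glycolytic enzymes, the enzymes and carriers that decide the fate of pyruvate and lactate, the oxygen sensors with Hif1a, and 6 further hypoxia targets. They were chosen by name, with earlier results of these data known, and all 36 were found among the 27179 identifiers of the count table. All 36 also passed the filter on low counts that left 14199 genes for testing. RNA was taken from mouse embryonic stem cells of the ES-E14TG2a background with a FLAG tag on Trim71, an RNA-binding TRIM-NHL protein. In one group of cells Trim71 carried the amino-acid change R783H and in the other (WT) it did not. Both groups were grown on gelatin in 2i with LIF, a medium holding the GSK3 inhibitor CHIR99021 and the MEK inhibitor PD0325901. Each group had 3 libraries of poly(A) RNA, lettered A, B and C, and the labels do not say whether a letter stands for a clone, a culture or a preparation, so p-values measure only the spread between these libraries.

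Total counts were 20894277 to 29079670 per library. Levels are given as TMM-scaled CPM. The floor of 3 counts in a library stands at 0.103 to 0.144 CPM of the total count, before TMM scaling. All 8 embryonic stem cell markers examined exceeded 10 CPM in every library, with summed levels of 6217 to 6299 CPM in R783H and 6548 to 6643 in WT. Summed levels were 2.18 to 3.13 CPM against 3.28 to 3.86 for 7 fibroblast markers, 9.02 to 10.1 against 4.28 to 6.68 for 6 endoderm markers, 33.0 to 37.9 against 45.7 to 50.5 for 4 trophoblast markers and 12.3 to 15.0 against 8.91 to 9.99 for 3 neural markers. Most of the trophoblast sum was Eomes (mean 32.9 CPM in R783H, 46.3 in WT), while Gata3 went the other way (2.34 and 1.4). Most of the neural sum was Sox1 (13.5 and 8.51), while Pax6 (0.0669 and 0.285) and Neurod1 (0.327 and 0.667) were lower. Gata4 (6.68 and 3.19) led the endoderm sum, while Sox7 was lower (0.102 and 0.667). A sum therefore does not give the direction of every marker in its list. None of the markers in these lists was at 0 in every library, and their part in the results was not tested. In bulk RNA, fewer cells of a type and less RNA per cell cannot be told apart.

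Of the 36 genes, 20 rose and 8 fell in R783H, and 8 did not reach the threshold of 0.05 for the adjusted p of edgeR's quasi-likelihood test. That is 77.8% of the genes called, beside 64.5% of all tested genes, of which 33.5% were higher and 30.9% lower. The R783H and WT libraries did not overlap for 30 of the 36 genes, beside 68.1% of all tested genes. The median log2 fold change of R783H over WT was 0.26 for the 36 genes and 0.03 for all tested genes. Of the 36 genes, 5 (13.9%; Bnip3, Ndrg1, Egln3, Vegfa and Pfkp) were called at least 2-fold higher, where 5.91% of all tested genes were, and 0 were called at least 2-fold lower, where 3.17% of all tested genes were. Split by role, 7 of the 9 oxygen-sensing and hypoxia target genes rose and 0 fell, with a median of 0.87, and 13 of the 27 glucose-handling genes rose and 8 fell, with a median of 0.12. This split does not separate hypoxia targets from other genes, since several glycolytic genes are targets too. Known targets such as Pdk1 (0.06, not called) and Slc16a3 (0.57, called higher) stand among the glucose-handling genes.

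**Figure D1:**
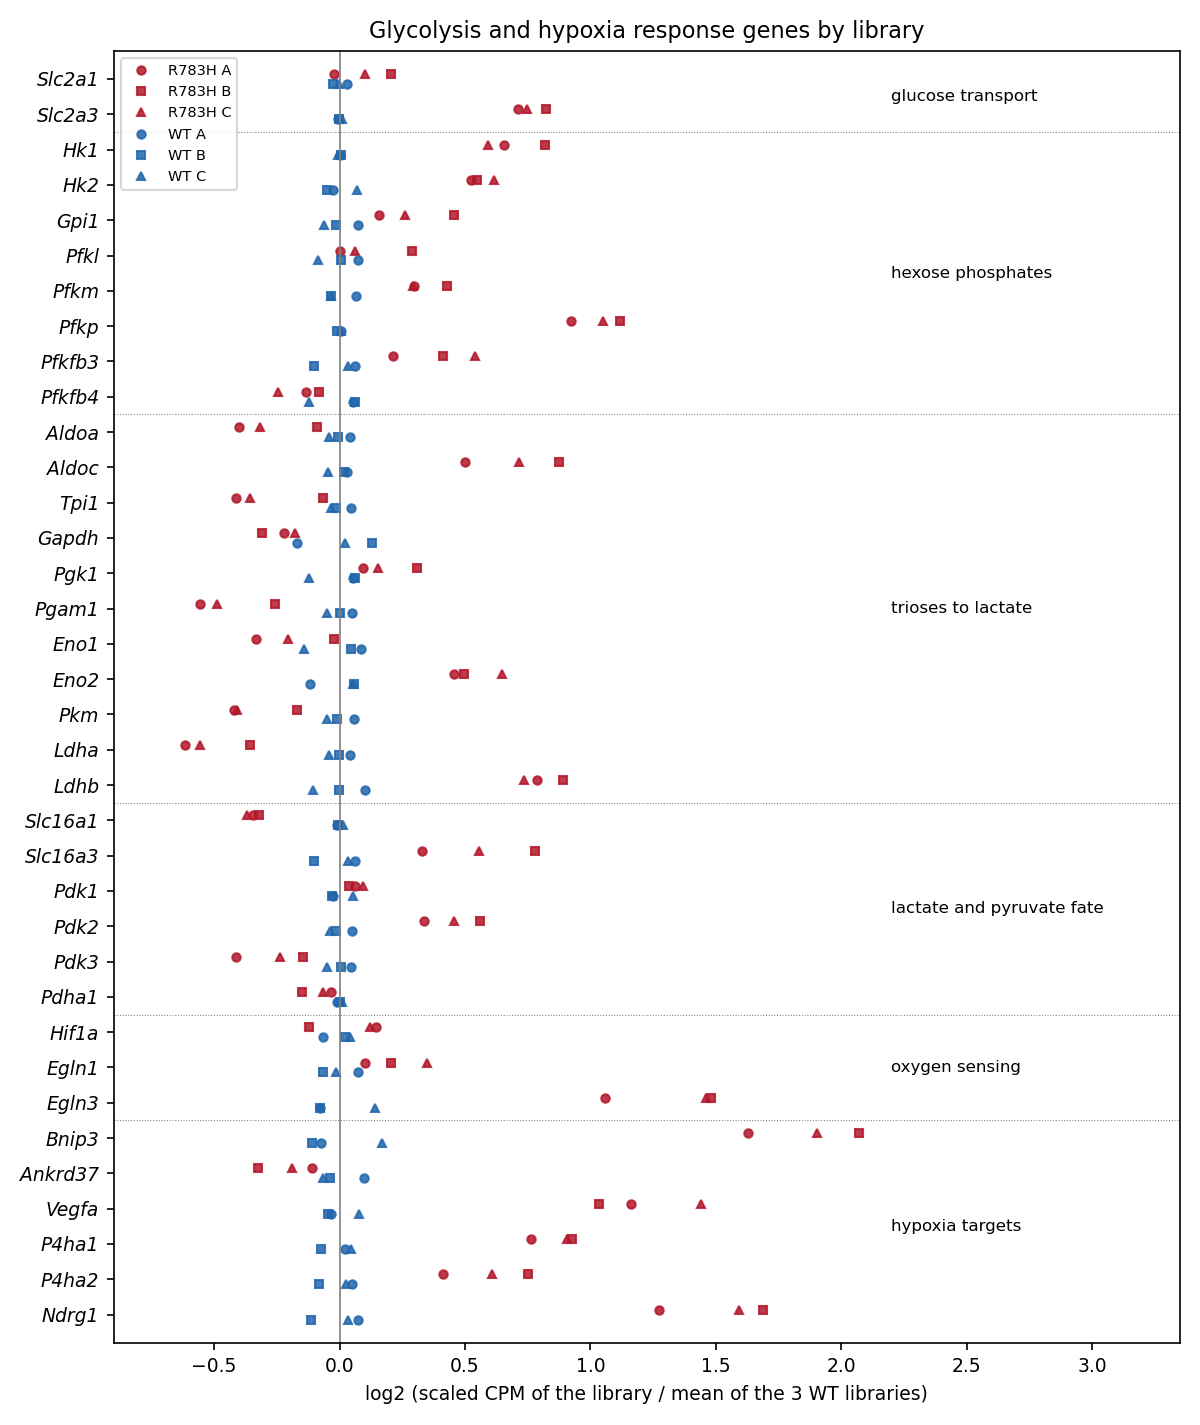
Each point is 1 library's scaled CPM for 1 gene, as log2 of its ratio to the mean of the 3 WT libraries (x axis), with the 36 genes ordered by role down the y axis. The red R783H points lie furthest to the right for Bnip3, Ndrg1, Egln3, Vegfa and Pfkp, and lie to the left of the blue WT points for Ldha, Pgam1, Pkm and Slc16a1.

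One library moved with many of these genes. R783H B was the highest of the 3 R783H libraries for 26 of the 36 genes (72.2%) and the lowest for 6, whereas it was the highest for 40.5% of all tested genes. Without R783H B, 29 of the 36 genes were called, 20 of them higher and 9 lower. Its part in the spread of the R783H values was not tested beyond leaving it out.

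The largest log2 fold changes of the 36 were those of Bnip3 and Ndrg1, both hypoxia targets. Bnip3 encodes a mitochondrial protein that promotes the removal of mitochondria. Its level was 41.0, 55.7 and 49.6 CPM in R783H A, B and C and 12.6, 12.3 and 14.9 CPM in WT A, B and C. The lowest R783H library stood above every WT library, and the log2 fold change was 1.88 (SE 0.12, adjusted p = 2.36e-07 by edgeR's quasi-likelihood test). Sequence covering 48.8% of the Bnip3 coding transcript recurs at 98% identity or more in 3 other annotated genes, so its counts are uncertain to the extent that such reads were split, merged or dropped. Ndrg1, a stress-responsive gene of the NDRG family, was at 36.4, 48.4 and 45.4 CPM in R783H and at 15.8, 13.9 and 15.4 CPM in WT. Here too the groups were separate, and the log2 fold change was 1.53 (SE 0.10).

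Vegfa encodes the growth factor that drives blood vessel formation. It was at 26.1, 23.9 and 31.7 CPM in R783H and at 11.4, 11.3 and 12.3 CPM in WT, so that every R783H library was above every WT library. Its log2 fold change was 1.22 (SE 0.10, adjusted p = 2.09e-06 by edgeR's quasi-likelihood test). P4ha1 and P4ha2 encode the catalytic subunits of the enzyme that hydroxylates prolines in collagen. P4ha1 was at 54.4, 61.0 and 60.1 CPM in R783H and at 32.6, 30.5 and 33.1 CPM in WT, and it rose by 0.87 (SE 0.06) on the log2 scale. The level of P4ha2 was 9.54 ± 1.13 CPM in R783H beside 6.30 ± 0.308 in WT (SD, n = 3), higher by 0.60 (SE 0.11). Ankrd37, an ankyrin-repeat gene often used as a marker of the hypoxia response, did not follow the other 5. It was at 6.95, 5.99 and 6.58 CPM in R783H and at 8.02, 7.30 and 7.17 CPM in WT. Each R783H library was below each WT library, and the log2 fold change of -0.20 (SE 0.10) did not pass the test (adjusted p = 0.101 by edgeR's quasi-likelihood test).

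Among the oxygen sensors, Egln3 encodes a prolyl hydroxylase that is itself a hypoxia target. Its level was 16.2, 21.7 and 21.4 CPM in R783H and 7.38, 7.38 and 8.58 CPM in WT. Even R783H A, the lowest of its group, exceeded the highest WT library, and the log2 fold change was 1.34 (SE 0.12, adjusted p = 3.39e-06 by edgeR's quasi-likelihood test). Egln1, the main oxygen sensor in most cells, was at 43.4, 46.6 and 51.5 CPM in R783H and at 42.6, 38.7 and 40.1 CPM in WT. The groups were separate by a small margin, with a log2 fold change of 0.22 (SE 0.07), and the call was lost without R783H C (0.14, adjusted p = 0.0924 by the same edgeR test) and without WT B (0.19, adjusted p = 0.0761). Hif1a, the oxygen-regulated subunit itself, was at 190.3, 157.9 and 186.9 CPM in R783H and at 164.2, 174.4 and 177.2 CPM in WT. The groups overlapped, since R783H B was the lowest of all 6 libraries, and the log2 fold change was 0.05 (SE 0.07, adjusted p = 0.511 by edgeR's quasi-likelihood test). Hif1a was called higher without R783H B (0.11, adjusted p = 0.0211 by edgeR) and lower with an offset for transcript length and GC content (-0.10, adjusted p = 0.0218). These are transcript levels, and the amount and activity of the Hif1a protein were not measured.

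The 250 bases before the start of 8 of these genes are shown because the core of a hypoxia response element is either ACGTG or GCGTG, and these letters can be looked for in them. Capitals mark both motifs on either strand (so CACGT and CACGC as well), and CACGTG, the E-box, holds ACGTG on both strands and therefore appears as 1 capital run. Sequences are RefSeq's on GRCm38.p6, printed 5′ to 3′ on the strand of the gene. Bnip3, P4ha1, Egln3 and Pfkp rose, Ldha, Pgam1 and Slc16a1 fell, and Ankrd37 was not called. The 8 are a selection, and each holds a match. In the 250 bases before the start, the first Vegfa window and the windows of Gpi1 and Eno2, all genes that rose, hold no match, nor does that of Tpi1, which fell.
Bnip3 (chr7:138909507-138909756, minus strand): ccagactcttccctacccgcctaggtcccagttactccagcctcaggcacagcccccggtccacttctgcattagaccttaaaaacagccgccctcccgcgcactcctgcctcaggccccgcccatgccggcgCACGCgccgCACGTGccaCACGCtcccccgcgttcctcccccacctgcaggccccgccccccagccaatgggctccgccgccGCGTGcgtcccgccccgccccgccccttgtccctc
P4ha1 (chr10:59323046-59323295, plus strand): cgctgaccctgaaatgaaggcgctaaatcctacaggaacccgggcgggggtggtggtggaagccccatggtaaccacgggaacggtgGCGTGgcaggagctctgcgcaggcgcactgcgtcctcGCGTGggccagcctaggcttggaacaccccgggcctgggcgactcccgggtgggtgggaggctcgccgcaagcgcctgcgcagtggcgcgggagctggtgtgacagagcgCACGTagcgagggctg
Egln3 (chr12:54203875-54204124, minus strand): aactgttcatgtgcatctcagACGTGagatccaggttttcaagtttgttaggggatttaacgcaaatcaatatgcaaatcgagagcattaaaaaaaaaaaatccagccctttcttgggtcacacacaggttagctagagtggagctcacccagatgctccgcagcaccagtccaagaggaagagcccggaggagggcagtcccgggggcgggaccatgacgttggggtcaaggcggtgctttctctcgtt
Pfkp (chr13:6648772-6649021, minus strand): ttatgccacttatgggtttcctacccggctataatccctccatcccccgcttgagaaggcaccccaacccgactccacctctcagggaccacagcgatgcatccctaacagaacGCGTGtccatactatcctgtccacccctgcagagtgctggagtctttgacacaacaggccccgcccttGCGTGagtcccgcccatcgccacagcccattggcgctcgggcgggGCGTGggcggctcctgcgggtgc
Ldha (chr7:46845554-46845803, plus strand): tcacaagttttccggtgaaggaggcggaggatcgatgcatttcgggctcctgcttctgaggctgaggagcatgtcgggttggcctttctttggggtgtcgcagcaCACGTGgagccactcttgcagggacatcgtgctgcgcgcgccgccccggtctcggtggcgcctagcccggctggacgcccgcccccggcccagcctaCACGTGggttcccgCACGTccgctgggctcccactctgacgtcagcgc
Pgam1 (chr19:41911621-41911870, plus strand): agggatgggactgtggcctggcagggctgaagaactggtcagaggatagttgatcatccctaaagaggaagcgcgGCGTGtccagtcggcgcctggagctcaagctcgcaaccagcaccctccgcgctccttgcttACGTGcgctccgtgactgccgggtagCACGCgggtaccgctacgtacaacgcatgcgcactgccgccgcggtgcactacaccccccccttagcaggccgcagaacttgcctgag
Slc16a1 (chr3:104638414-104638663, plus strand): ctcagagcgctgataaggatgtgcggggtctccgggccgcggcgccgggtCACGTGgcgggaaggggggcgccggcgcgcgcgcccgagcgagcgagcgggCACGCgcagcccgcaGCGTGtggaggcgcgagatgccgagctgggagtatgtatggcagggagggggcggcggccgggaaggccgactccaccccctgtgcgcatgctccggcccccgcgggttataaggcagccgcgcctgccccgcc
Ankrd37 (chr8:45999851-46000100, minus strand): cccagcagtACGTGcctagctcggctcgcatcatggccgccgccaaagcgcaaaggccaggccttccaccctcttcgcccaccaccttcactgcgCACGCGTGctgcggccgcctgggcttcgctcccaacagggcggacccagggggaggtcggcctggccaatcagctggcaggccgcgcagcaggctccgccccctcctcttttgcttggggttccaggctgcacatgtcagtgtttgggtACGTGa
Bnip3 holds 1 E-box and 3 matches to GCGTG in the stretch shown, and the first Ldha window holds 2 E-boxes. Ankrd37, with no call, holds 2 matches to ACGTG and 2 to GCGTG, of which a pair overlap. The table of promoters had 49 windows for 34 of the 36 genes, each running from 250 bases before to 50 after a start, and none for Slc2a3 or Ndrg1. ACGTG was in 27 of the 49 windows (55.1%), beside 19.6% of all 32851 windows and 25.2% of the 13661 windows of tested genes. GCGTG was in 28 (57.1%), beside 32.4% of all windows and 50% of those of tested genes. CACGTG was in 7 (14.3%), beside 7.15% and 10.1%. ACGTG or GCGTG was in 39 of the 49 windows (79.6%) and in a window of 31 of the 34 genes, beside 43.8% of all windows and 61.5% of those of tested genes. The windows of the 36 genes averaged 61.9% GC, those of tested genes 60.7% and all windows 53.8%.

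The letters were found among genes of both directions. ACGTG was in a window of 14 of the 18 genes that rose and had a window, of 7 of the 8 that fell, and of 3 of the 8 that were not called. GCGTG was in a window of 11, 5 and 7 of these genes. A match describes the letters of the window and is not evidence that a factor binds there.

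Slc2a3 and Slc2a1 encode transporters of the GLUT family that bring glucose into the cell. Slc2a3 (GLUT3), a high-affinity transporter, was at 3992, 4316 and 4093 CPM in R783H and at 2427, 2433 and 2458 CPM in WT. The groups were far apart compared with their spread, and the log2 fold change was 0.76 (SE 0.04, adjusted p = 1.34e-07 by edgeR's quasi-likelihood test). Slc2a1 (GLUT1), the transporter found in most cells, was at 308.0, 360.7 and 335.1 CPM in R783H and at 319.2, 306.7 and 312.0 CPM in WT. R783H A lay within the WT range, and the log2 fold change of 0.10 (SE 0.06) did not pass the test (adjusted p = 0.143 by edgeR), though Slc2a1 was called higher without R783H A (0.14, adjusted p = 0.0497). Per kb of transcript, Slc2a3 was already the more abundant of the pair in WT, at 390.1 CPM per kb beside 95.9 for Slc2a1. Its share of the pair was 80.3 ± 0.363% in WT and 86.6 ± 0.479% in R783H (SD, n = 3).

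The enzymes that act on hexoses before the sugar is split moved mostly upward, with 6 of 8 rising and 0 falling (median 0.37). That is 75% called, beside 64.5% of all tested genes, of which 33.5% were higher. The hexokinases Hk1 and Hk2 trap glucose as glucose 6-phosphate. Hk2 was at 795.5, 808.8 and 849.1 CPM in R783H and at 544.3, 534.7 and 581.5 CPM in WT. Hk1 was at 176.2, 197.6 and 168.5 CPM in R783H and at 111.9, 112.4 and 111.3 CPM in WT. Neither gene's groups overlapped, and the log2 fold changes were 0.56 (SE 0.05) for Hk2 and 0.69 (SE 0.06) for Hk1. The share of Hk2 among the hexokinase pair was 79.3 ± 0.797% in WT and 77.8 ± 1.79% in R783H, and the groups overlapped (exact two-sided permutation p = 0.3, n = 3 per group). Gpi1, which converts glucose 6-phosphate to fructose 6-phosphate, rose by 0.30 (SE 0.07) on the log2 scale, or 0.19 without R783H B, and has a near-identical copy of part of its transcript.

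Phosphofructokinase commits the sugar to glycolysis and is built from the liver (Pfkl), muscle (Pfkm) and platelet (Pfkp) subunits. Pfkp was at 447.0, 511.3 and 488.9 CPM in R783H and at 236.5, 233.9 and 236.8 CPM in WT. Every R783H library had well above the WT level, and the log2 fold change was 1.03 (SE 0.05, adjusted p = 7.22e-08 by edgeR's quasi-likelihood test). Pfkm rose by 0.34 (SE 0.05). Pfkl, at 458.6 ± 49.6 CPM in R783H and 421.2 ± 23.3 in WT, overlapped between the groups and was not called (0.12, SE 0.07, adjusted p = 0.15 by edgeR, and called higher with the length and GC offset, adjusted p = 0.0365). Among the 3 subunits, scaled to transcript length, Pfkp made up 16.0, 16.6 and 17.5% in WT and 26.8, 25.9 and 27.9% in R783H. The length used for Pfkp was 8681 nt, beside 4145 nt for its longest coding transcript, and the shorter length would give it a larger share in both groups. The share of Pfkl was lower, at 59.2 ± 1.25% in R783H beside 69.3 ± 0.937% in WT. Pfkfb3 and Pfkfb4 make and break fructose 2,6-bisphosphate, the activator of phosphofructokinase. Pfkfb3 was called higher at 13.7 ± 1.53 CPM in R783H and 10.5 ± 0.630 in WT (0.40, SE 0.10), and Pfkfb4 was not called at 8.16 ± 0.575 CPM in WT and 7.35 ± 0.424 in R783H (-0.15, SE 0.10, adjusted p = 0.186 by edgeR).

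**Figure D2:**
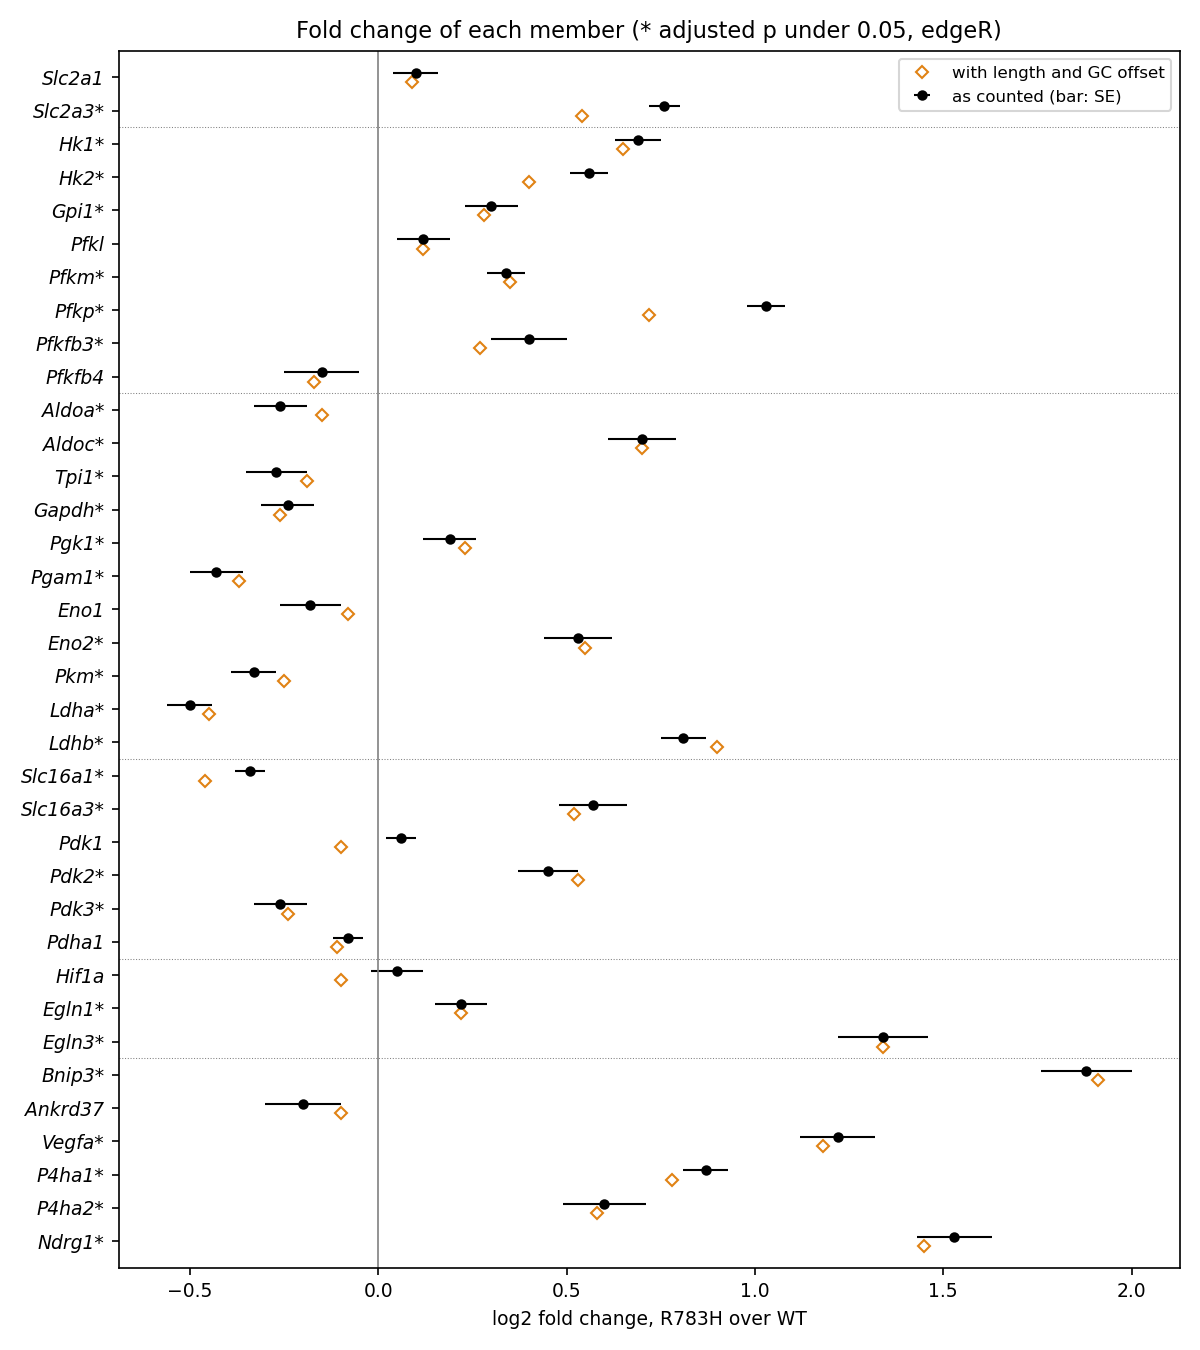
The x axis is the log2 fold change of R783H over WT for each of the 36 genes on the y axis, as black points with their SE, and as orange diamonds after an offset for transcript length and GC content. An asterisk marks an adjusted p under 0.05 without the offset, and most diamonds lie on the same side of 0 as their points, with Pdk1 and Hif1a as the 2 exceptions at -0.10.

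Below the split into trioses the direction was mixed, and the genes with the highest counts per kb fell. Of the 11 genes from aldolase to lactate dehydrogenase, 6 fell, 4 rose and 1 was not called (median -0.24). That is 90.9% called, beside 64.5% of all tested genes, of which 30.9% were lower and 33.5% higher. Per kb of transcript the order in WT was led by Pkm at 1556 CPM per kb, Aldoa at 1125, Ldha at 742.6 and Tpi1 at 469.1, and these 4 all fell. This order depends on how reads shared with near-identical copies were counted, which is not known. It leaves out Eno1b, a near-identical copy of Eno1 with 985.9 CPM in WT and a transcript of 1791 nt, and Gapdh cannot be ranked for the same reason. Pkm, the muscle-type pyruvate kinase gene, was at 2824, 3365 and 2853 CPM in R783H and at 3943, 3756 and 3656 CPM in WT. R783H B lay nearest to WT but still below it, and the log2 fold change was -0.33 (SE 0.06, adjusted p = 9.80e-04 by edgeR's quasi-likelihood test). Reads were counted per gene, so the splice forms M1 and M2 of Pkm cannot be told apart.

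Aldoa, which splits fructose 1,6-bisphosphate, was at 1319, 1636 and 1398 CPM in R783H and at 1796, 1737 and 1694 CPM in WT. Tpi1, which interconverts the trioses, was at 566.2, 720.7 and 588.2 CPM in R783H and at 778.3, 747.1 and 736.0 CPM in WT. For both genes R783H B came close to the lowest WT library, and the log2 fold changes were -0.26 (SE 0.07) and -0.27 (SE 0.08), or -0.38 and -0.41 without R783H B. Pgam1, the phosphoglycerate mutase, stood at 118.8 ± 13.1 CPM in R783H beside 159.9 ± 5.41 in WT, and fell by 0.43 (SE 0.07). Eno1, an enolase, was at 514.4 ± 41.9 CPM in WT and 453.7 ± 49.8 in R783H and was not called (-0.18, SE 0.08, adjusted p = 0.0607 by edgeR). It was called lower without R783H B (-0.29, adjusted p = 1.30e-04), without WT C (-0.25, adjusted p = 0.0191), by DESeq2 (-0.20, adjusted p = 0.0217) and in 3 further alternatives (RLE factors, no filter and the replicate block, adjusted p = 0.0209 to 0.0463), 6 of 15 in all. Eno1b, a near-identical gene with its own row in the table, had 727.4 ± 88.1 CPM in R783H and 985.9 ± 15.2 in WT. It was called lower, at -0.44 on the log2 scale (SE 0.07, adjusted p = 2.42e-04 by edgeR). Eno1 and Eno1b together had 1181 CPM in R783H and 1500 in WT. Of all enolase genes, per kb, Eno1b made up 67.6% in WT and 63.3% in R783H, and Eno1 31.1% and 34.9%.

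The steps from glyceraldehyde 3-phosphate to 3-phosphoglycerate are the least certain of the pathway. Gapdh was at 38.0, 35.8 and 39.2 CPM in R783H and at 39.4, 48.5 and 45.0 CPM in WT. With 13.5 CPM per kb of its longest transcript (3289 nt, coding or not) in WT, it lay far below its neighbours Aldoa and Pkm. That transcript has 74 near-identical copies elsewhere in the annotation, which cover 35.7% of it. Of its coding transcript of 1420 nt, 88.0% recurs in near-identical copies. Its log2 fold change of -0.24 (SE 0.07) was not called without WT B (-0.17, adjusted p = 0.0975 by edgeR). Pgk1, which yields the first ATP of the pathway, was at 99.2, 115.1 and 103.6 CPM in R783H and at 96.6, 97.1 and 85.4 CPM in WT. The groups were separate by little, and the log2 fold change of 0.19 (SE 0.07) was not called without R783H B (0.10, adjusted p = 0.0885 by edgeR), without R783H C (0.19, adjusted p = 0.0527) or without WT C (0.13, adjusted p = 0.132). Near-identical copies cover 68.8% of the Pgk1 coding transcript, 85.6% of that of Eno1, 65.5% of Pkm, 43.1% of Pgam1 and 76.8% of Ldhb.

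Among the 36 genes, the less abundant isoenzymes of this stretch, Ldhb, Aldoc and Eno2, rose. Outside the 36, Eno3 was at 11.6 ± 0.862 CPM in R783H and 13.2 ± 0.305 in WT, without overlap. It was not called (-0.19, SE 0.08, adjusted p = 0.057 by edgeR), but was called lower with RLE factors, without R783H B and at equal depth. Pgam2 was not called either, at 1.87 CPM in R783H and 2.27 in WT (-0.27, SE 0.21). Ldha, the subunit of lactate dehydrogenase usually linked to lactate production, was at 880.5, 1054 and 917.8 CPM in R783H and at 1387, 1347 and 1309 CPM in WT. Ldhb, the subunit usually linked to lactate use, was at 134.4, 144.5 and 129.5 CPM in R783H and at 83.4, 77.7 and 72.4 CPM in WT. The groups of each gene were separate, in opposite directions. The log2 fold change was -0.50 (SE 0.06, adjusted p = 3.07e-05 by edgeR's quasi-likelihood test) for Ldha and 0.81 (SE 0.06, adjusted p = 9.16e-07) for Ldhb. Aldoc, the aldolase of brain, rose from 24.9 ± 0.686 to 40.6 ± 5.29 CPM (0.70, SE 0.09), and Eno2, the neuronal enolase, rose from 7.09 ± 0.482 to 10.3 ± 0.715 CPM (0.53, SE 0.09).

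Per kb of transcript, Ldhb made up 7.72, 7.43 and 7.14% of the lactate dehydrogenase pair in WT and 17.5, 16.0 and 16.4% in R783H. Summed per kb, the pair was at 802.3 ± 25.8 CPM per kb in WT and 628.2 ± 55.4 in R783H. Aldoc was a small part of its pair with Aldoa, at 1.53% in R783H beside 0.789% in WT, and so was Eno2 of its pair with Eno1, at 1.63% beside 0.997%. That pair leaves out Eno1b and Eno3, and of all 4 enolase genes Eno2 made up 0.578 ± 0.0722% in R783H and 0.312 ± 0.0296% in WT, also without overlap. Shares were compared for 24 genes of 11 families, and 20 of the 24 did not overlap between the groups. In a pair the shares are mirror images, so a separation is counted for both genes. The CPM of 68.1% of all tested genes did not overlap, though a share is a different measure. With 3 against 3 libraries an exact two-sided permutation test cannot give a p below 0.1, which each of these 20 had (0.12 after Benjamini-Hochberg adjustment over the 24), so no share passes a threshold of 0.05 by itself. The shares of 1 family sum to 100%, so its members are not independent.

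**Figure D3:**
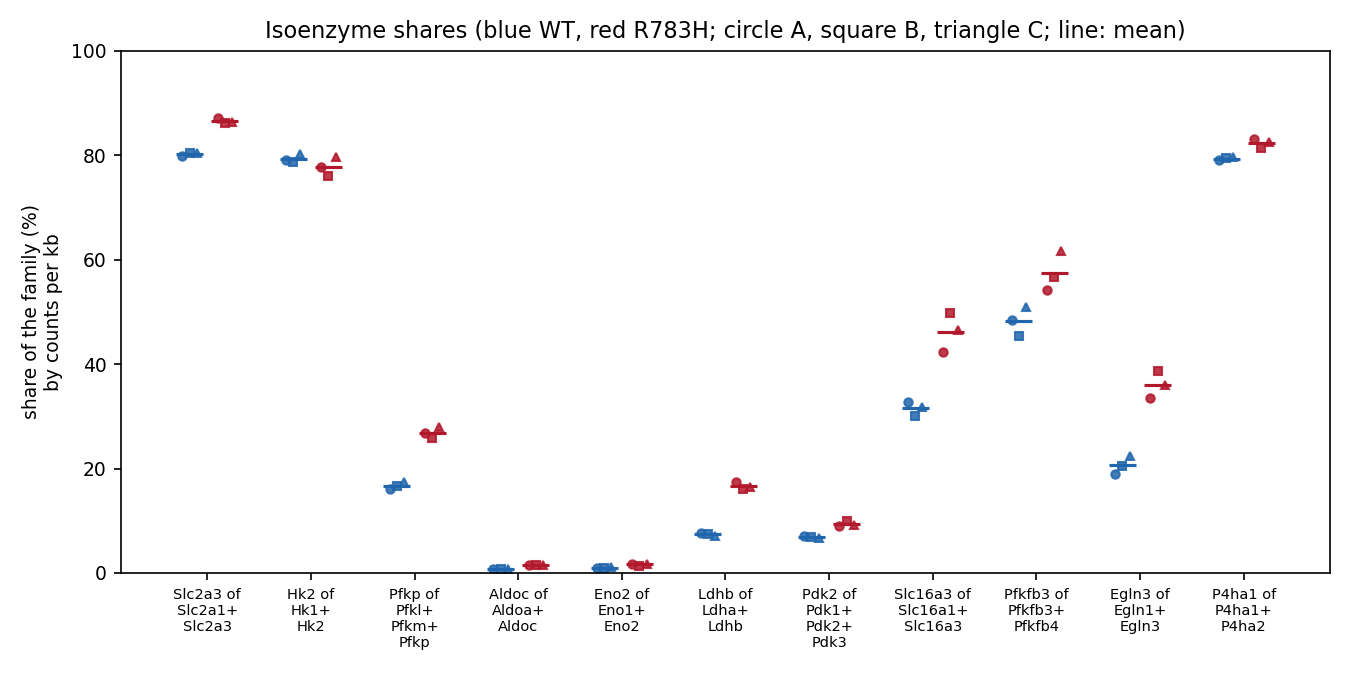
The y axis is the share (%) of 1 isoenzyme among the genes of its family named on the x axis, from counts per kb of transcript. Points are libraries (blue WT, red R783H) and lines are means of 3, and among the isoenzymes shown the groups overlap for Hk2 alone. The isoenzyme shown was picked with its direction known and the rest of its family moves the other way by construction, so the common direction carries no information.

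Lactate leaves and enters cells through monocarboxylate transporters. Slc16a1 (MCT1) was at 165.0, 167.7 and 162.3 CPM in R783H and at 208.0, 208.7 and 211.7 CPM in WT. Slc16a3 (MCT4), a carrier known for lactate export and as a hypoxia target, was at 118.6, 162.3 and 138.9 CPM in R783H and at 98.8, 88.0 and 96.8 CPM in WT. Both pairs of groups were separate, Slc16a1 falling by 0.34 (SE 0.04) on the log2 scale and Slc16a3 rising by 0.57 (SE 0.09). The share of Slc16a3 was 31.5 ± 1.30% of the pair in WT and 46.2 ± 3.70% in R783H. The sum of the pair overlapped between the groups, at 69.1 ± 1.46 CPM per kb in WT and 69.6 ± 5.40 in R783H.

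Pyruvate enters the mitochondria to be oxidised by the pyruvate dehydrogenase complex, which the kinases Pdk1, Pdk2 and Pdk3 switch off. Pdk2 was at 12.7, 14.8 and 13.8 CPM in R783H and at 10.4, 9.95 and 9.80 CPM in WT, and it rose by 0.45 (SE 0.08). Pdk3, with 34.7 ± 3.22 CPM in R783H and 41.6 ± 1.41 in WT, fell by 0.26 (SE 0.07). Pdk1, the kinase best known as a hypoxia target, was at 221.5, 217.9 and 226.1 CPM in R783H and at 208.5, 208.0 and 219.9 CPM in WT. The groups overlapped, and the log2 fold change of 0.06 (SE 0.04) did not pass the test (adjusted p = 0.2 by edgeR). With the length and GC offset Pdk1 was called lower, at -0.10 (adjusted p = 0.0176). With library size alone it was called higher, at 0.15 (adjusted p = 0.0104 by edgeR), so the direction of its call depends on the normalization. Pdha1, the catalytic subunit of the complex, was at 278.5 ± 11.3 CPM in R783H and 294.9 ± 1.87 in WT without overlap and without a call (-0.08, SE 0.04, adjusted p = 0.112 by edgeR, and called lower with the offset, adjusted p = 0.0104). By share, Pdk3 made up 30.2 ± 1.22% of the 3 kinases in WT and 25.1 ± 1.69% in R783H, and Pdk2 6.88 ± 0.236% and 9.37 ± 0.518%. These shares leave out Pdk4, at 8.66 ± 0.426 CPM in R783H and 5.13 ± 0.588 in WT, which rose by 0.75 (SE 0.11).

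The pairs of Egln, Pfkfb and P4ha genes also differed in their makeup. The share of Egln3 beside Egln1 was 19.0, 20.5 and 22.4% in WT and 33.5, 38.6 and 35.9% in R783H. Pfkfb3 made up 48.2 ± 2.75% of its pair with Pfkfb4 in WT and 57.5 ± 3.75% in R783H, and P4ha1 made up 79.4 ± 0.304% and 82.3 ± 0.941% of its pair with P4ha2. No library of one group reached the range of the other in these 3 pairs. The Egln and Pfkfb pairs leave out relatives that were more abundant per kb of transcript. Egln2 was at 49.5 CPM per kb in WT and 40.6 in R783H, beside 2.92 and 7.42 for Egln3. Pfkfb2 was at 5.68 and 12.0 and Pfkfb1 at 4.91 and 6.03, beside 2.18 and 2.86 for Pfkfb3. Shares with these relatives included were not computed.

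Fold changes in these libraries followed transcript length. Across 13067 tested genes with an annotated length, Spearman's rho between length and log2 fold change was 0.256, a description across genes that share the same 6 libraries. The longest of the 36 transcripts are those of Pfkp (8681 nt) and Slc2a3 (6253 nt), which rose, and among the shortest are Aldoa (1549 nt), Tpi1 (1607 nt) and Ldha (1815 nt), which fell, but also Ldhb (1304 nt) and Bnip3 (1756 nt), which rose. These are lengths of the longest annotated transcript, coding or not, and the offset used them too. The longest coding transcripts are shorter for Pfkp (4145 nt) and Slc2a3 (3959 nt), and the offset was not fitted with coding lengths. An offset for length and GC content, fitted to each library, lowered the log2 fold change of Pfkp from 1.03 to 0.72, of Slc2a3 from 0.76 to 0.54 and of Hk2 from 0.56 to 0.40, and moved Aldoa from -0.26 to -0.15. Ldha stayed at -0.45, Ldhb at 0.90, Bnip3 at 1.91, Ndrg1 at 1.45 and Vegfa at 1.18. With the offset 21 of the 36 genes were called higher and 11 lower, where 31.2% and 37.5% of the 13067 genes were (68.7% in either direction), and the median was 0.25 beside -0.03.

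**Figure D4:**
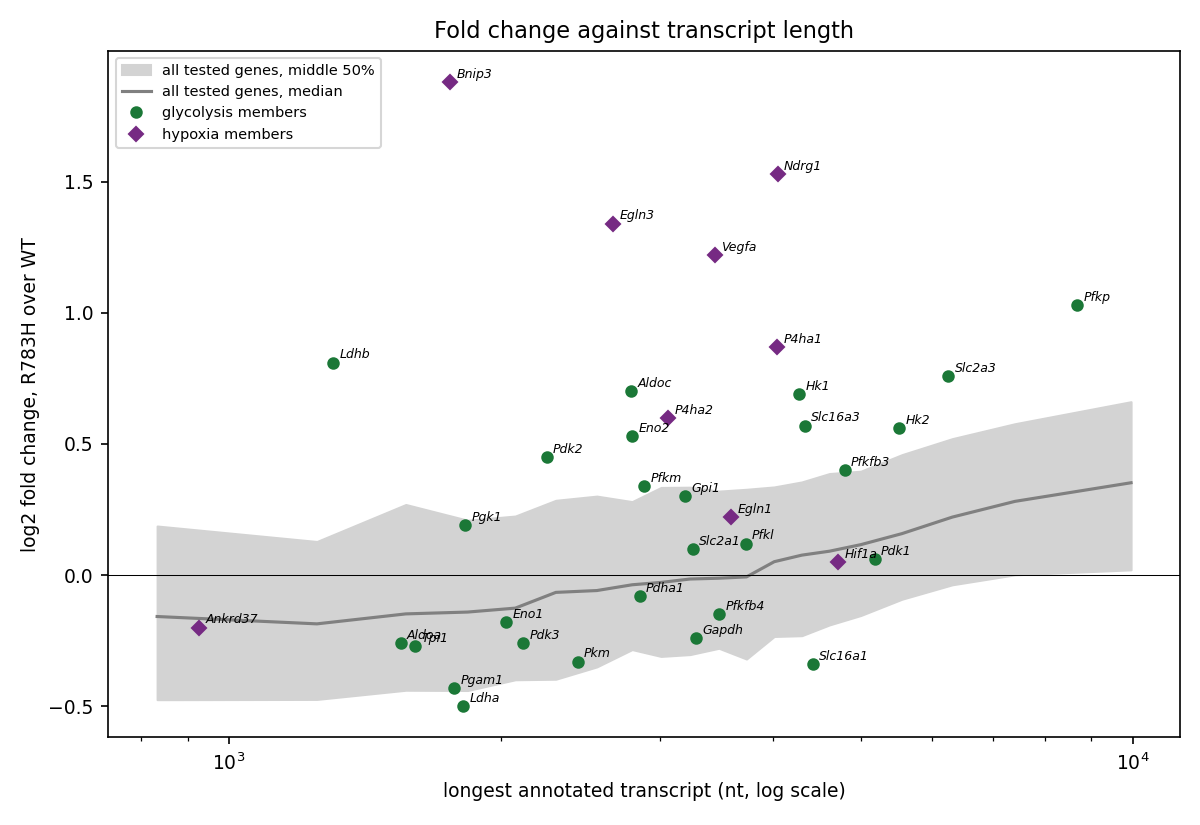
The x axis is the length of the longest annotated transcript in nt (log scale) and the y axis the log2 fold change of R783H over WT. The grey line and band are the median and the middle 50% of the tested genes in bins of length, and the hypoxia genes Bnip3, Ndrg1, Egln3 and Vegfa lie above the band at lengths of 1756 to 4049 nt.

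Genes of the surrounding pathways were read in 5 lists. Of all tested genes 64.5% were called, 33.5% higher and 30.9% lower. Of the HIF machinery, 6 of 10 genes rose, 3 fell and 1 was not called (90% called, median 0.32). Epas1 (HIF2 alpha), the other well-known oxygen-regulated subunit, was at 13.1, 11.3 and 12.3 CPM in R783H and at 6.24, 5.95 and 5.53 CPM in WT. Hif3a, a further alpha subunit, was at 21.7, 25.7 and 22.4 CPM in R783H and at 14.8, 14.1 and 13.2 CPM in WT. Both genes were higher in every R783H library than in any WT library, with log2 fold changes of 1.05 (SE 0.09) and 0.73 (SE 0.08). Arnt, the partner of the alpha subunits, rose by 0.37 (SE 0.05) and its relative Arnt2 by 0.32 (SE 0.09). The coactivators Ep300 and Crebbp, 2 long genes, rose by 0.38 (SE 0.07) and 0.33 (SE 0.09) and were not called with the length and GC offset, at 0.05 and -0.03. Arnt2 was not called with it either, at 0.11, nor by DESeq2 (0.30, adjusted p = 0.054). Egln2, another prolyl hydroxylase of the family, fell by 0.29 (SE 0.05) and by 0.09 with the offset, Hif1an, which blocks coactivator binding, fell by 0.16 (SE 0.05), and Cited2, a competitor for the coactivators, fell by 0.14 (SE 0.06). Vhl, the ligase subunit, was not called at 48.2 ± 3.65 CPM in R783H and 51.1 ± 2.60 in WT, but was called lower without R783H B (-0.17, adjusted p = 0.0106 by edgeR). The call of Hif1an was lost without R783H C or any single WT library (adjusted p = 0.0531 to 0.0734 by edgeR) and with library size alone (-0.08, adjusted p = 0.219), and with the offset its value was -0.37. Cited2 kept its call in 5 of the 15 alternatives, and lost it without R783H A, R783H C, WT A or WT B (adjusted p = 0.0699 to 0.183 by edgeR), with the offset (0.0592) and with 5 other settings. The call of Crebbp was lost without WT B (0.27, adjusted p = 0.0545 by edgeR). With the offset the list had 3 genes higher, 2 lower and a median of 0.01.

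Other hypoxia targets were mixed in direction. Of 23 tested genes of a list of 26, 13 rose, 6 fell and 4 were not called (median 0.20, or 0.10 with the length and GC offset). That is 82.6% called, beside 64.5% of all tested genes, of which 33.5% were higher and 30.9% lower. Bhlhe40, a transcriptional repressor, was at 66.5, 75.8 and 77.4 CPM in R783H and at 15.6, 14.6 and 15.9 CPM in WT. No library of one group came near the other, and the log2 fold change was 2.25 (SE 0.07), above that of any of the 36 genes. Ppfia4, a liprin, rose by 1.26 (SE 0.07), Plod2, a lysyl hydroxylase of collagen, by 1.00 (SE 0.06), and Ero1a, an oxidase of the endoplasmic reticulum, by 0.70 (SE 0.07). The 6 that fell were Tfrc (-0.66), Higd1a (-0.51), Hmox1 (-0.30), Mif (-0.30), P4hb (-0.22) and Bnip3l (-0.17). With the offset Mif was at 0.01 and not called. The call of Bnip3l was lost without R783H A, WT A or WT C and with library size alone. Near-identical copies cover 93.4% of the Mif coding transcript, 34.7% of that of Bnip3l and 12.9% of that of Higd1a.

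Further genes of glycolysis, gluconeogenesis and sugar handling had 10 of 20 tested higher, 2 lower and a median of 0.20. Of all tested genes 33.5% were higher and 30.9% lower, and the list had 60% called, under the 64.5% of all tested genes. Pgm1, which links glycogen to glucose 6-phosphate, was at 29.0, 40.7 and 34.2 CPM in R783H and at 10.8, 10.6 and 10.5 CPM in WT. The groups were separate, with a log2 fold change of 1.71 (SE 0.12). Pfkfb2 rose by 1.08 (SE 0.07), the transporter gene Slc2a8 by 0.91 (SE 0.07), and Pck2, the mitochondrial phosphoenolpyruvate carboxykinase, by 0.79 (SE 0.06).

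The pentose phosphate pathway, which draws on glucose 6-phosphate to make NADPH and ribose, had 0 of 7 genes higher and 5 lower (median -0.31). That is 71.4% called, beside 64.5% of all tested genes. G6pdx, its entry enzyme, was at 89.9, 101.7 and 89.1 CPM in R783H and at 116.4, 118.8 and 112.6 CPM in WT. All 3 R783H libraries were below the WT range, and the log2 fold change was -0.31 (SE 0.06). Pgd, the next dehydrogenase, fell by 0.35 (SE 0.06), Rpia, which isomerises ribose 5-phosphate, by 0.51 (SE 0.08), and Taldo1, the transaldolase, by 0.36 (SE 0.06). Of 9 genes for the entry of pyruvate into mitochondria, 6 fell and 2 rose (88.9% called, median -0.19). Dlat and Dld, subunits of the pyruvate dehydrogenase complex, fell by 0.19 (SE 0.04) and 0.36 (SE 0.05), Mpc2 of the mitochondrial pyruvate carrier fell by 0.26 (SE 0.08), and Pdp2, the phosphatase that reactivates the complex, rose by 0.46 (SE 0.05), or 0.26 with the length and GC offset. With library size alone Dlat was at -0.10 and Mpc2 was not called (-0.18). The call of Mpc2 was lost without WT A (-0.18, adjusted p = 0.0871 by edgeR).

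**Figure D5:**
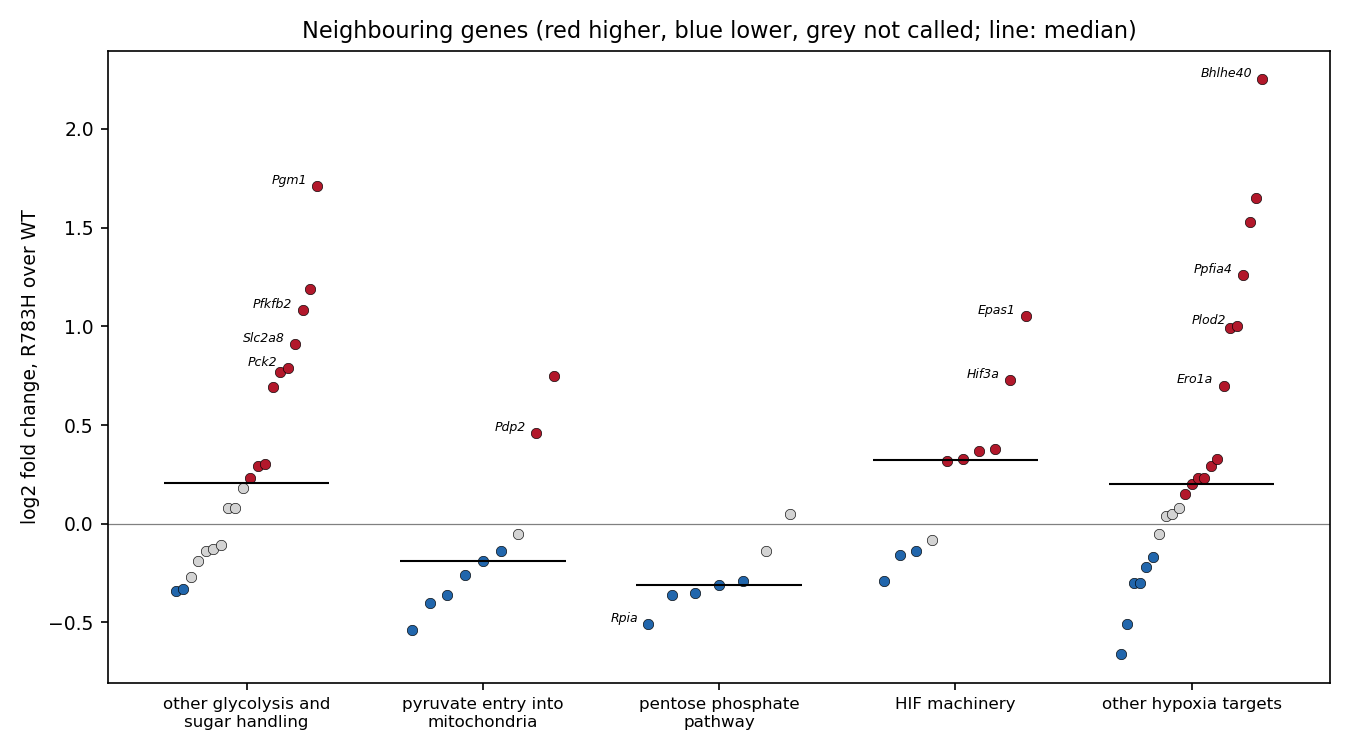
Each point is 1 tested gene of a surrounding list (x axis) at its log2 fold change of R783H over WT (y axis), with the list's median as a line. The pentose phosphate points are at or below 0 except for 1 grey point just above it, while Bhlhe40 and Pgm1 are the highest points of their lists.

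Myc, a transcription factor known to act on many glycolytic genes, was at 19.3, 21.2 and 19.3 CPM in R783H and at 66.2, 67.2 and 62.8 CPM in WT. Trim71 itself was at 151.7, 129.0 and 150.5 CPM in R783H and at 130.8, 131.2 and 159.4 CPM in WT, and its groups overlapped. A change of 1 amino acid does not alter the reads counted for the gene, so the Trim71 level does not check the labels. The part of either gene in the values above was not tested.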

How the data were processed

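Poly(A) RNA of 6 libraries, 3 R783H and 3 WT, was sequenced, and the authors deposited raw read counts per gene in 1 table of 27179 Entrez identifiers. Per the submitters' processing notes, CASAVA 1.4, HISAT2 and SAMtools were used with the build mm10; the counting tool, its annotation, the use of strand and the treatment of reads with several matches are not given in the sources used here. Groups and letters came from the sample titles. A RefSeq gene table of GRCm38.p6 gave symbols to 25275 identifiers.

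Genes were kept with filterByExpr (minimum count 10, minimum total 15) and scaled with TMM. The fit of edgeR 4.0.16 in R 4.3.3 had group as its single term, was made on all 14199 kept genes and was checked on simulated data. P-values were adjusted over these genes by Benjamini-Hochberg, and a call is an adjusted p under 0.05. The SE is the log2 fold change over the root of the test's F. Depth is 20894277 to 29079670 counts; reads are not independent molecules, so floors cover counting error only.

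Isoenzyme shares used counts per kb of the longest GENCODE M21 transcript, coding or not, with exact permutation tests (scipy 1.17.1). For Pfkp, Slc2a3, Gapdh and P4ha2, among others, that transcript is longer than the longest coding one. Their levels per kb and shares depend on this choice. BLAST 2.17.0 found near-identical copies (at least 98% over 100 nt). Exons of 14 of the 36 genes overlap those of another gene in that annotation, strand ignored (Slc2a1, Hk1, Gpi1, Pfkm, Pfkp, Aldoa, Tpi1, Gapdh, Pkm, Pdha1, Hif1a, Bnip3, Ankrd37 and Ndrg1). So do those of Pgm1, Pfkfb1, Pfkfb2, Pck2, G6pdx, Arnt2, Egln2, Ep300, Higd1a, Plod2, Bhlhe40 and Trim71. The counts of all these genes are uncertain to that extent.

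The members and lists were chosen with earlier results of these data known. Genes named besides the 36 are Myc, Trim71, all of the HIF machinery and, of each other list, up to 4 called genes with the largest change and at least 10 CPM in the higher group. Pdk4, Pfkfb1, Eno3, Pgam2 and the other hypoxia targets that fell were named after their values were seen. Eno1b was named after its values were seen, as a near-identical copy of Eno1. Alternatives were RLE factors, library size alone, 2 other filters, DESeq2 1.42.0, limma-voom (limma 3.58.1), a replicate block, each library left out, equal depth, and an offset for length and GC content (natural splines with 5 df).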

Additional observations from a re-analysis of the deposited data

How the results depend on the processing

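Under the 15 alternatives, 515 of 540 values of the 36 genes kept their direction and their side of the threshold, and 27 genes did so in all 15, among them 25 of the 28 called genes. Leaving out 1 library at a time gave 26 to 29 called genes (18 to 21 higher, 7 to 9 lower), and 8161 to 9882 called genes over the whole table. The length and GC offset reversed Pdk1 to -0.10, Hif1a to -0.10, Trim71 to -0.27, Crebbp to -0.03, Mif to 0.01 and the median of all tested genes to -0.03. Pdk1, Hif1a and Trim71 were then called lower, and the cause was not tested. With library size alone Pdk1 was called higher instead (0.15, adjusted p = 0.0104 by edgeR). Leaving out 1 library gave -0.01 to 0.11 for Hif1a, below 0 without R783H A, and -0.02 to 0.13 for Trim71, below 0 without R783H A, R783H C, WT A or WT B, with no call below 0.

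Calls were lost for Gapdh with library size alone (-0.15), for Pgk1 with RLE factors (0.17) and for these and Egln1 without the single libraries named beside them. With library size alone the median of all tested genes was 0.11. Without the 8 genes that have a near-identical copy, an alternative chosen after seeing the data, 21 of 28 genes were called, 16 higher and 5 lower, with fewer genes by construction. The share of Eno2 over 4 enolase genes, also chosen after seeing the data, differed by 0.266 percentage points in the same direction as over the pair (0.629). With the replicate block, 29 of the 36 genes were called (20 higher, 9 lower), and 9260 of all genes. Same-letter libraries correlated at -0.07 (A), 0.00682 (B) and 0.0851 (C) in their deviations from the group means. R783H A and B correlated best with a WT library of another letter, and R783H C with WT C. Values this small, from 3 libraries per group, cannot tell whether samples of the same letter were handled together. Depth limits the lowest genes, such as Ankrd37, Pfkfb4, P4ha2 and Eno2 at 5.95 to 11.1 CPM, and the number of 3 libraries per group limits every value.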

Other observations

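Several tissue-specific isoenzymes were near or below the floor of 3 counts per library and were not tested. Hk3, a hexokinase of blood cells, had 0 counts in all 6 libraries, and the liver glucose transporter gene Slc2a2 and the monocarboxylate transporter gene Slc16a7 had 0 to 2. Adm, which encodes the hypoxia target adrenomedullin, had 2, 10 and 8 counts in the R783H libraries and 1, 3 and 0 in the WT libraries, in the order of their letters, and was not tested. These genes were picked for mention after their counts were seen.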
